A study of Mus musculus with 8 samples.

Results

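The genes described here make, break down and read the cyclic nucleotides cAMP and cGMP. They were taken by symbol, as the protein-coding mouse genes of the adenylyl cyclases (Adcy), guanylyl cyclases (Gucy), natriuretic peptide receptors (Npr1 to Npr3), phosphodiesterases (Pde), catalytic and regulatory subunits of protein kinase A (Prkaca, Prkacb and the Prkar genes), cGMP-dependent kinases (Prkg1 and Prkg2), A-kinase anchoring proteins (Akap) and numbered CREB factors. This gave 73 genes of 42416 gene identifiers, and 49 of them had at least 10 counts in at least 4 libraries and could be tested. The libraries were RNA sequencing libraries made from the distal convoluted tubule of mice, a short kidney segment that takes up NaCl through the thiazide-sensitive cotransporter, each from 1000 fragments sorted on a Biosorter. The study asked how transcripts of these tubules differ when calcineurin is deleted there, in the context of the kidney side effects of calcineurin inhibitors.

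The 4 Control libraries came from animals in which the Cnb1fl allele was wt, and the 4 KO libraries from animals in which it was Tg/Tg. Cnb1 is the regulatory B subunit of the calcium-dependent phosphatase calcineurin (gene symbol Ppp3r1). Animals of both groups carried NCCcre and TOMATO, each as Tg/+, and both groups received oral tamoxifen at 2 mg per animal per day for 5 days and were used 3 weeks later. NCC is the NaCl cotransporter of this segment, so deletion is limited to cells in which the Cre transgene is active. The labels give no age or sex. Each label names another animal, and replicate numbers only name libraries in order of deposit.

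In the textbook scheme, hormone receptors coupled to the G protein Gs switch on adenylyl cyclases, cAMP releases the catalytic from the regulatory subunits of protein kinase A, and anchoring proteins hold the kinase near its substrates. Nitric oxide and natriuretic peptides raise cGMP instead, and phosphodiesterases degrade both messengers with family-specific preferences. In the distal convoluted tubule, parathyroid hormone and other hormones act through cAMP on salt, calcium and magnesium transport, and calcineurin can act on the same pathway by removing phosphate groups.

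Total counts ranged from 18161442 to 45150953 per library. Ppp3r1 stood at 84.3 to 108 CPM (counts scaled to a common library size, with TMM factors) in Control and 74.0 to 97.7 CPM in KO, and the groups overlapped, so its gene-level count does not check the labels. The 14 marker genes of the segment summed to 25385 to 29025 CPM for Control against 13661 to 18899 CPM for KO, and 7 of them fell by edgeR's test with adjusted p-values under 0.05. Of the 14, Slc12a3, the cotransporter itself, averaged 6781 CPM for Control against 5121 CPM for KO and did not pass (edgeR adjusted p = 0.492). The markers did not move together. Pvalb had a log2 fold change of -8.01, whereas Erbb4 had 0.42 and Tmem52b 0.41, the latter with KO higher without overlap. The 9 thick ascending limb markers summed to 8616 to 13587 CPM for Control against 3731 to 6634 CPM for KO. Only 1 of these 9 passed, Umod, at a mean of 8810 CPM for Control against 3859 CPM for KO. Cldn19 and Ppp1r1b had positive log2 fold changes, of 0.23 and 0.18. The 13 proximal tubule markers summed to 7867 to 19451 and 5024 to 12854 CPM. Leukocyte markers (0 of 12 passed, 5 tested) summed to 10.8 to 13.6 and 21.0 to 77.0 CPM. Much of these sums was Csf1r, at 6.02 to 7.79 CPM for Control against 12.4 to 72.3 CPM for KO. Of the other leukocyte markers tested, Ptprc and Cd68 had log2 fold changes of 1.53 and 1.83, whereas C1qb had 0.10 and Lyz2 -0.20. Of 10 markers of dividing cells, 9 rose. In libraries of whole fragments, a marker sum cannot tell apart fewer cells of a type, less RNA per cell and changes of single genes. The part of these differences in the values below was not tested.

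No cyclic nucleotide gene passed the threshold, where 2.06% of the 14444 genes tested did. Of the 49 tested, 0 had an adjusted p under 0.05 by edgeR's quasi-likelihood test (of all genes, 1.23% were higher and 0.838% lower in KO), and 5 had an unadjusted p under 0.05, all lower in KO. That was 10.2% of the 49, against 13.9% of all genes in either direction and 6.13% lower in KO. DESeq2 passed 2 (5.22% of all genes by that tool) and limma-voom 2 (3.54%), in both cases Prkar1b and Pde9a. In 3 of the 49, or 6.12%, the ranges of the groups were separate, against 9.4% of all genes. Prkar1a and Prkar1b were lower in all KO libraries (3.8% of all genes) and Pde4a was higher (5.6%).

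To show these 3 genes at the sequence level, 1 start region of each is printed, from RefSeq on GRCm38.p6. It is the stretch of the 300-base window around an annotated start (250 bases before, 50 after) that lies outside annotated exons. Capitals mark TGACGTCA, the full cAMP response element bound by CREB factors, and TGACG, the shorter element, on either strand, so that CGTCA is TGACG read on the other strand. The full element holds the short one on both strands and counts as 2 of them. The printed stretches were picked from windows that hold such an element. Each of the 3 genes also has annotated starts whose windows hold none. Prkar1a is chr11:109650625-109650911 on the plus strand, downstream of its most upstream start, Prkar1b is chr5:139150002-139150222 on the minus strand, and Pde4a is chr9:21183851-21184100 on the plus strand, inside the span of the gene.
Prkar1a: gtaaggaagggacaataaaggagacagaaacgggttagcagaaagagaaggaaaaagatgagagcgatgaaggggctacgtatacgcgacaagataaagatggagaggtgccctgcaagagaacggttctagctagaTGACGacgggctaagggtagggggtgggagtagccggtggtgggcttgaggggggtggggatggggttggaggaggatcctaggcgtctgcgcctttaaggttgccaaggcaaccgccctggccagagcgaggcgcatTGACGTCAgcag
Prkar1b: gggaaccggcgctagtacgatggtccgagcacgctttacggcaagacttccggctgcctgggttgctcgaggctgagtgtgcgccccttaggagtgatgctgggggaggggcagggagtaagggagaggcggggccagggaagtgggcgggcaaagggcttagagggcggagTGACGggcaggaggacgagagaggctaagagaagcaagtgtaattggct
Pde4a: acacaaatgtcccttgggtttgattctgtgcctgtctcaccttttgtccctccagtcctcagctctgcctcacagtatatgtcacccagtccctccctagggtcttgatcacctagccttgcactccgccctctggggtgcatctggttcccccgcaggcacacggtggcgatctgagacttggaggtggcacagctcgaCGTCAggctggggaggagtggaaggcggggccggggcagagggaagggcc

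The Prkar1a stretch holds 1 full element near its 3′ end and 1 further TGACG, the Prkar1b stretch 1 TGACG and the Pde4a stretch 1 CGTCA. Windows were found for 60 of the 73 genes, 106 in all. TGACGTCA was present in 3 of these 106 windows (2.83%), a pair of overlapping ones of Prkar1a and 1 of Creb5, against 1.79% of all 32851 windows. TGACG was present in 23 (21.7%), against 20.8% of all windows. These are matches of letters and describe the windows only.

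The other genes tested were spread around no difference. The log2 fold change, KO over Control, was positive for 19 and negative for 30 genes (61.2% negative, against 52.9% of all genes tested), with a median of -0.08 against -0.02. Unscaled library totals shifted the median over all genes to 0.13, and the split was then 27 positive and 22 negative. In 39 of the 49 (79.6%, against 82.1% of all genes) the log2 fold change was smaller than 0.5 in size, and in 1, Pde10a, it was 1 or more (4.73% of all genes). The approximate standard error ranged from 0.10 to 0.87 with a median of 0.19. A difference of several standard errors could still miss the threshold, as did Prkar1b at -0.96 ± 0.22.

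**Figure D1:**
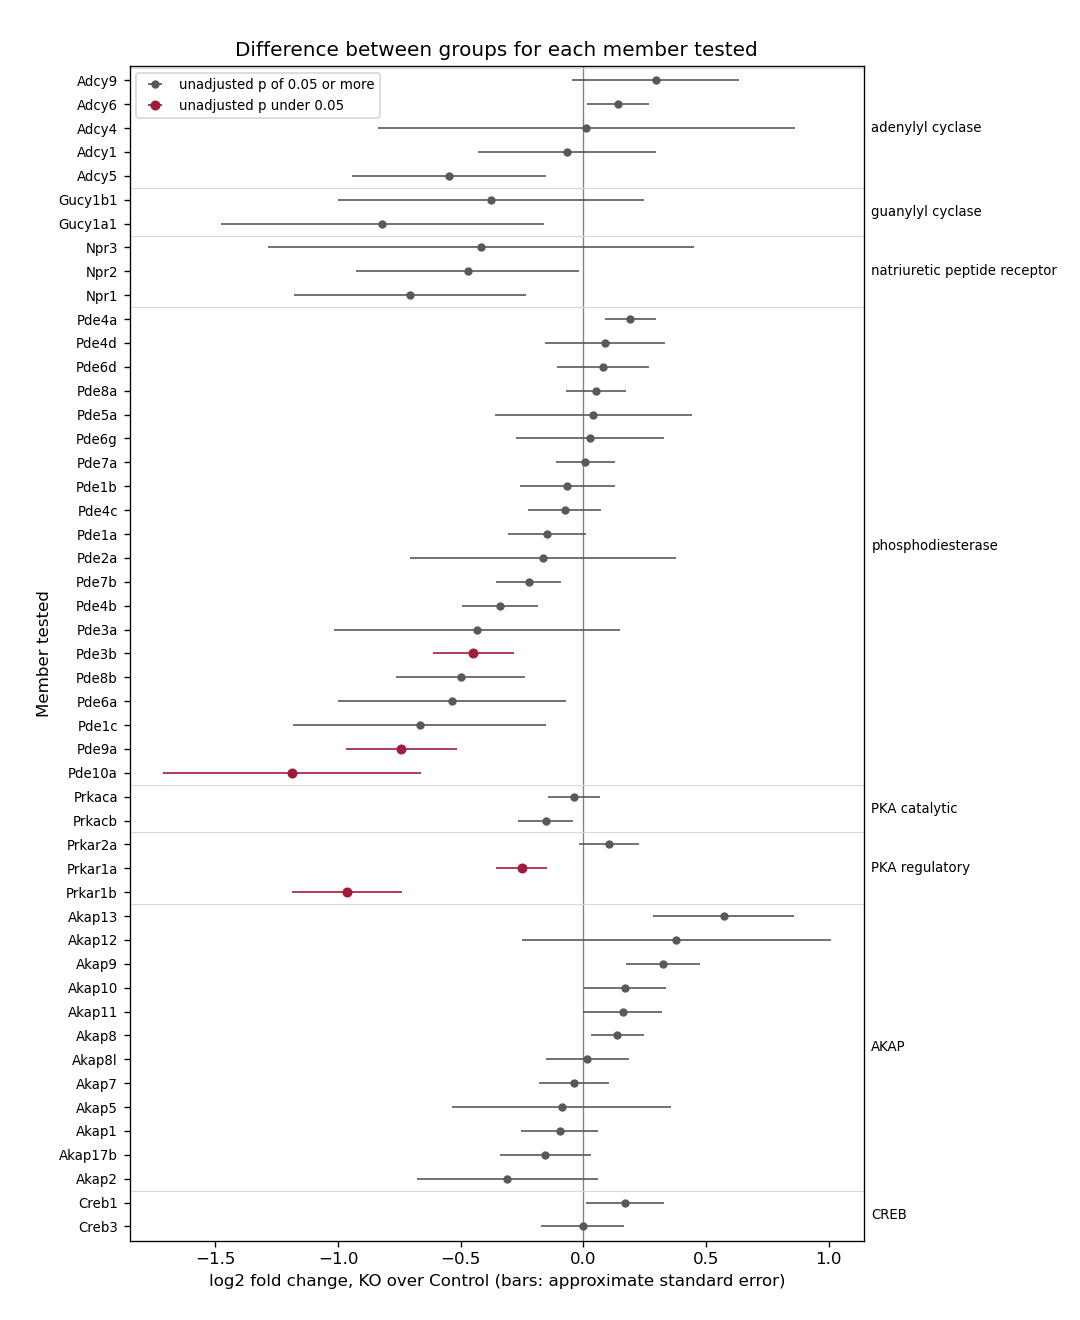
The log2 fold change of KO over Control is plotted for each of the 49 genes tested, by role, with bars of 1 approximate standard error (n = 4 libraries per group). The 5 genes with an unadjusted p under 0.05, from Pde10a at -1.19 to Prkar1a at -0.25, are in red, and none passed after adjustment.

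Transcript levels differed widely between genes of the same role. Levels of different genes are compared below only per length, as CPM per kilobase of exon. Prkar1a, the type I regulatory subunit alpha of protein kinase A, was highest at 65.6 ± 6.66 (SD over all 8 libraries), followed by the cyclase Adcy6 at 47.0 ± 5.32 and the catalytic subunit Prkaca at 41.2 ± 2.79. Adcy6 and Prkaca overlapped in range, at 41.8 to 58.8 and 37.1 to 46.0 CPM per kilobase. Prkar1a, at 56.9 to 73.1, overlapped Adcy6 in range but not Prkaca. Next came the phosphodiesterases Pde4c at 23.7 ± 3.27, Pde8a at 18.1 ± 1.87 and Pde1a at 15.6 ± 2.58 and the anchoring protein Akap1 at 17.2 ± 2.62, whose ranges overlapped. In all, 10 of the 73 genes were at 10 CPM per kilobase or more and 31 at 1 or more.

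**Figure D2:**
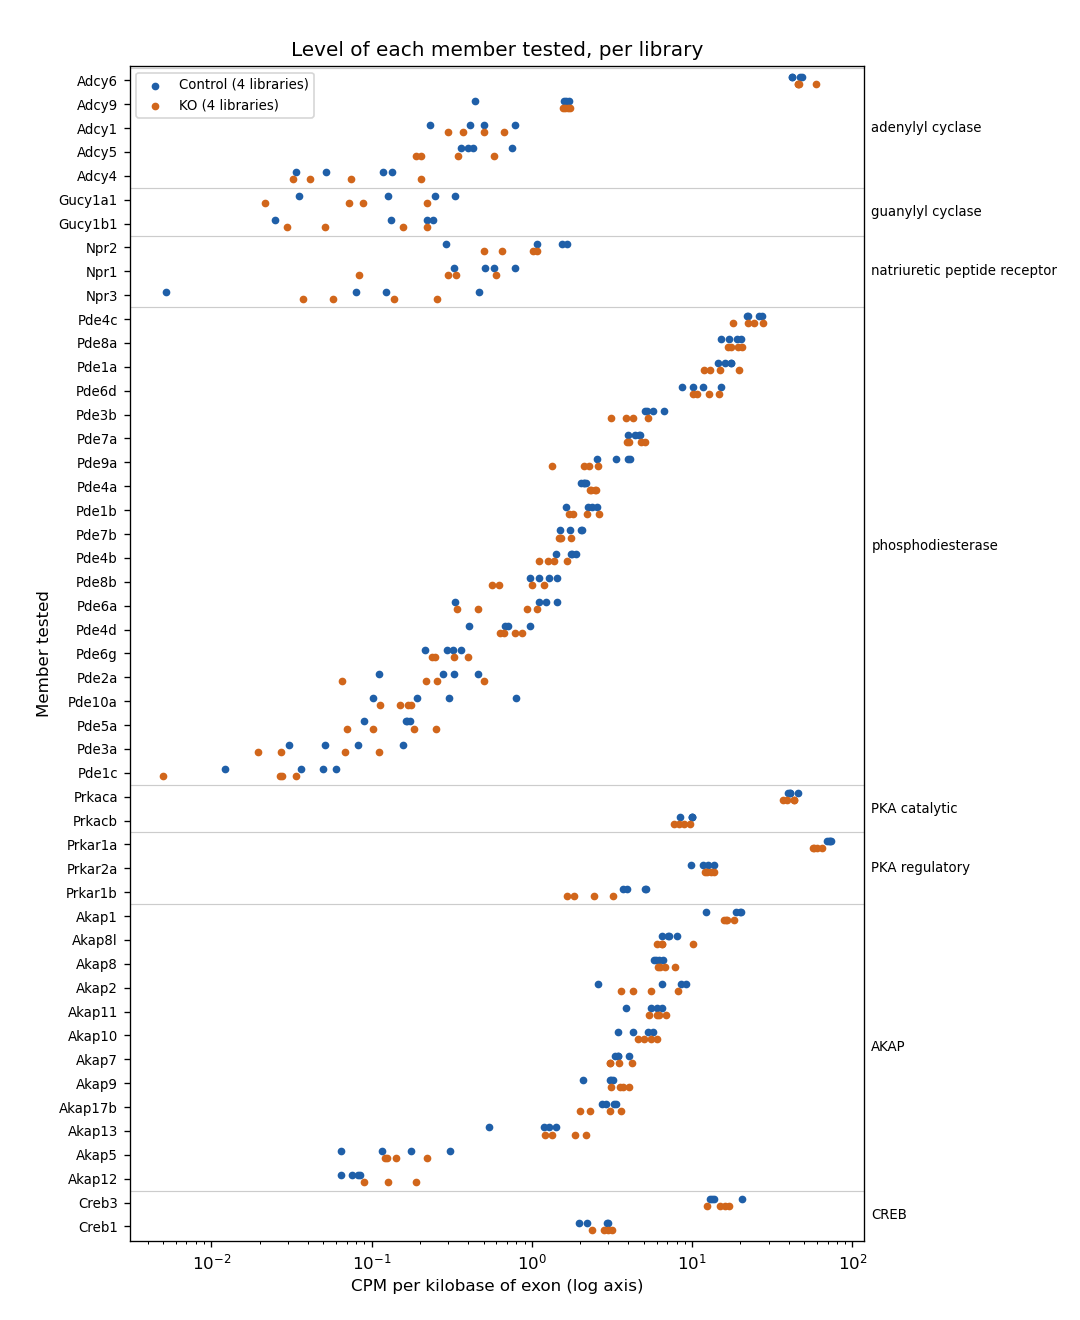
Each point is 1 library, plotted on a log axis of CPM per kilobase of exon, for the 49 genes tested by role. Prkar1a, Adcy6 and Prkaca lie between 37.1 and 73.1 in every library, and KO replicate 4 of Akap12, at 0 counts, is not drawn.

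A further 24 genes were below the filter, and 6 of them, Akap4, Gucy2c, Gucy2d, Gucy2e, Pde6b and Pde6c, had 0 counts in all 8 libraries. A count of 0 allows up to 3 counts over the 8 libraries, or 0.0136 CPM, and this limit covers counting error only. The others included Adcy2 and Adcy8, best known from the brain. Both cGMP-dependent kinases were among the 24: Prkg1 had 51 counts over all libraries (25 in Control and 26 in KO), and Prkg2 had 17 (11 and 6). The regulatory subunit Prkar2b had 29 counts.

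Among the adenylyl cyclases, which make cAMP, Adcy6, a form inhibited by calcium, made up 93.5% to 97.7% of the summed per-length level of all 10 cyclases in every library. Control replicates 1 to 4 held 318, 284, 283 and 327 CPM of it, and the KO replicates 399, 312, 309 and 317 CPM. The groups overlapped, KO replicate 1 was the highest library, and the log2 fold change was 0.14 ± 0.13 (SE, edgeR adjusted p = 0.633).

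Adcy9, a cyclase reported to be held back by calcium through calcineurin, stood at 2.29, 8.30, 8.83 and 8.46 CPM for Control against 8.79, 8.95, 8.42 and 8.17 CPM for KO. Control replicate 1 lay far below the 7 other libraries, which spanned less than 1 CPM. The log2 fold change was 0.29 ± 0.34 (edgeR adjusted p = 0.711). The calmodulin-stimulated Adcy1 ranged from 2.88 to 9.81 CPM for Control against 3.76 to 8.38 CPM for KO, and Adcy5, the closest relative of Adcy6, from 2.59 to 5.41 and 1.36 to 4.16 CPM. Adcy4 was below 1 CPM in every library. Adcy3 was not tested, with 29 counts in all, and its exons overlap those of Cenpo, which held 959.

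The cGMP-making enzymes and receptors were all low. The subunits of the nitric oxide-sensitive cyclase, Gucy1a1 and Gucy1b1, were at most 2.30 and 0.95 CPM in any library. Npr1, the receptor of atrial and brain natriuretic peptides, ranged from 1.56 to 3.76 CPM for Control against 0.40 to 2.87 CPM for KO. Npr2, the receptor of C-type natriuretic peptide, ranged from 1.37 to 7.68 and 2.36 to 5.03 CPM, and Npr3, the clearance receptor without a cyclase, from 0.05 to 4.41 and 0.35 to 2.40 CPM. All 5 had negative log2 fold changes, from -0.82 ± 0.66 for Gucy1a1 to -0.38 ± 0.62 for Gucy1b1, and their groups overlapped. The sign of Npr3 was not stable, at 0.90 with a block for the leading digits of the animal number and from -0.99 to 0.77 over the fits that leave out 1 library.

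These genes were not evenly spread over libraries, and neither were markers of vessels and glomeruli. Gucy1a1, for example, read 0.24, 1.73, 0.89 and 2.30 CPM across the Control replicates, in order, and 0.62, 0.50, 1.53 and 0.15 CPM across the KO replicates. The 10 endothelial markers (0 passed, 9 tested) summed to 21.9, 44.7, 46.8 and 48.9 CPM for Control against 22.6, 30.4, 60.8 and 8.42 CPM for KO. The 7 podocyte markers summed to 17.8, 56.2, 47.9 and 146 CPM and to 41.9, 33.0, 105 and 14.9 CPM. Control replicate 1 and KO replicate 4 were low, and Control replicate 4 and KO replicate 3 high, in Gucy1a1 and in both marker sums. Npr1 and Npr3 had the same lowest and highest libraries as Gucy1a1, but Npr2 and Gucy1b1 did not in full. Npr2 read 5.06 CPM in Control replicate 4, below replicates 2 and 3 (7.15 and 7.68). Gucy1b1 was lowest in KO replicate 2 (0.12 CPM). KO replicate 1 was low in the endothelial sum (22.6) but not in Gucy1a1 (0.62). Smooth muscle, pericyte and fibroblast markers (0 of 14 passed, Lum at 0 throughout) summed to 21.6, 29.6, 29.0 and 39.5 CPM for Control. For KO they summed to 29.0, 11.5, 16.0 and 12.4 CPM, so KO replicate 1 was the highest KO library, unlike in Gucy1a1. The part of these cells in the cGMP genes was not tested.

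**Figure D3:**
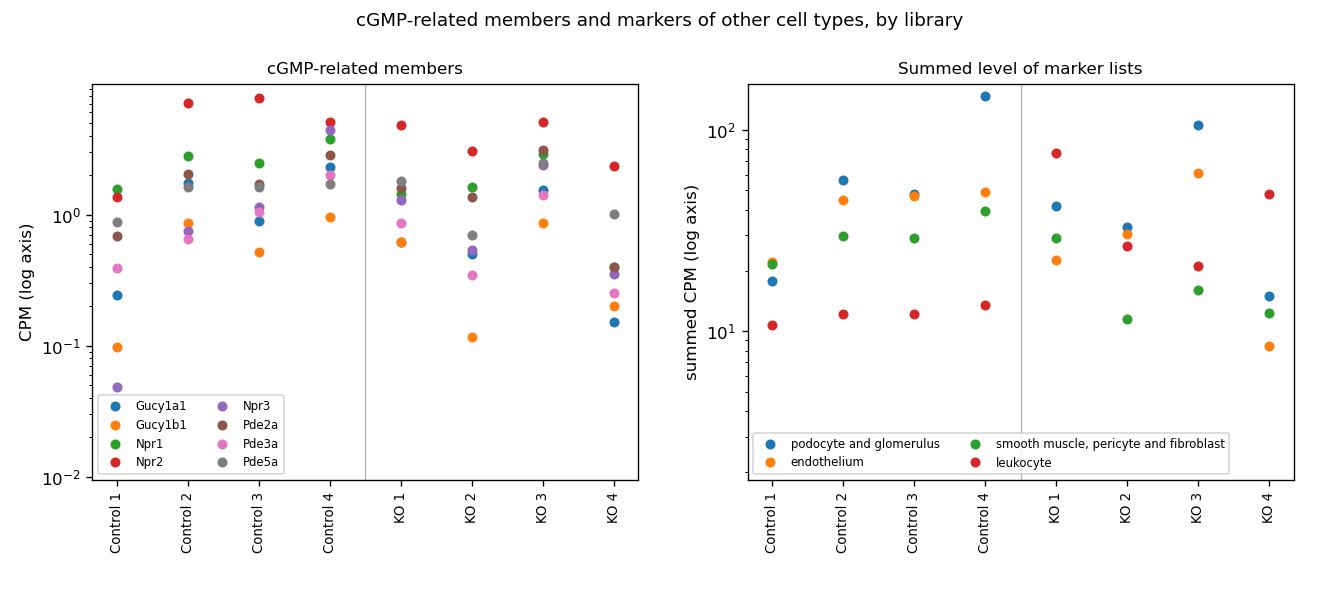
Left, CPM of 8 cGMP-related genes in each library. Right, summed CPM of 4 marker lists in each library, both on log axes. Control replicate 1 and KO replicate 4 sit low in Gucy1a1, at 0.24 and 0.15 CPM, and in the endothelial sum, at 21.9 and 8.42 CPM.

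Gucy2g, a membrane guanylyl cyclase, was below the filter and had 9, 8, 3 and 5 counts in the Control libraries, in order, and 0 in every KO library. Taking 3 counts over the KO group as the most that 0 allows, the Control level was 9.88-fold that limit. This takes the Control counts as exact and does not cover differences between animals, so it is no strict lower bound. With no filter on low counts it passed edgeR's test, on 25 reads over all libraries.

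The phosphodiesterases, which degrade cAMP, cGMP or both, were led by families that prefer or also take cAMP. In percent of the summed per-length level of the hydrolases, the cAMP-specific Pde4 family made up 34.5 ± 3.63 for Control against 35.8 ± 5.44 for KO (± SD, n = 4), and Pde4c alone 29.1 ± 3.95 and 30.0 ± 5.50. The cAMP-specific Pde8 family made up 22.6 ± 2.38 and 24.9 ± 0.926, and the calcium- and calmodulin-activated Pde1 family, which takes both messengers, 22.2 ± 0.553 and 21.7 ± 3.57. By substrate, cAMP-specific enzymes held 64.6% ± 2.23 of the level for Control against 68.6% ± 5.35 for KO, and cGMP-specific ones 5.53% ± 1.27 and 3.74% ± 0.901. The ranges of both groups overlapped in each of these classes.

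Pde9a, the cGMP-specific enzyme of highest affinity, read 8.97, 14.0, 11.9 and 14.5 CPM across Control libraries. In KO it read 7.45, 8.10, 9.12 and 4.71 CPM. Control replicate 1, at 8.97, lay below the highest KO library, and the other 3 Control libraries lay above all KO libraries. The log2 fold change was -0.74 ± 0.23 (SE, unadjusted p = 0.00853, edgeR adjusted p = 0.164), or 40.2% lower, and the adjusted p was 0.0434 by DESeq2 and 0.0390 by limma-voom. Over the fits that leave out 1 library the fold change lay between -0.87 and -0.59.

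Pde3b, the enzyme that cGMP inhibits and insulin activates, was at 47.8, 52.1, 61.2 and 46.1 CPM for Control against 39.2, 35.3, 48.5 and 28.6 CPM for KO. KO replicate 3 lay within the Control range, and the other 3 KO libraries lay below it. The log2 fold change was -0.45 ± 0.17 (unadjusted p = 0.0216, edgeR adjusted p = 0.258).

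Pde10a, which degrades both messengers, was at 1.32, 10.3, 2.46 and 3.91 CPM for Control against 1.93, 2.27, 1.46 and 2.16 CPM for KO. Its log2 fold change of -1.19 ± 0.53 (unadjusted p = 0.0472, edgeR adjusted p = 0.352) rested on Control replicate 2, without which it was -0.38. Pde4a, a cAMP-specific enzyme, was at 15.6, 16.1, 16.1 and 16.6 CPM for Control against 18.9, 17.7, 17.8 and 19.3 CPM for KO. All KO libraries lay above all Control libraries, by a log2 fold change of 0.19 ± 0.10 (edgeR adjusted p = 0.438).

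For Pde4c, Pde1a, Pde8a and Pde7a the means differed by less than the larger SD of the groups. Pde4c stood at 136 ± 15.2 CPM for Control against 129 ± 22.7 CPM for KO (± SD, n = 4), Pde1a at 98.6 ± 8.71 and 89.0 ± 20.6 CPM, Pde8a at 72.0 ± 9.02 and 74.6 ± 6.86 CPM and Pde7a at 34.3 ± 2.68 and 34.6 ± 4.47 CPM. Their adjusted p-values by edgeR lay from 0.69 for Pde1a to 0.98 for Pde7a. Pde1b (log2 -0.07 ± 0.19) and Pde4d (0.09 ± 0.25) had small differences, Pde4b had -0.34 ± 0.16, and Pde1c, at 1.20 CPM or less, had -0.67 ± 0.52. Pde5a, the target of sildenafil, was between 0.69 and 2.48 CPM, and Pde2a, which cGMP stimulates, between 0.40 and 3.11 CPM. Pde2a shares 64.3% of its exon bases with the predicted gene Gm45837 on the same strand, so its count is uncertain. Pde3a was between 0.25 and 2.00 CPM (log2 -0.43 ± 0.58), and Pde6d, a prenyl-binding chaperone and not an esterase, between 18.9 and 33.1 CPM (0.08 ± 0.19).

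The regulatory subunits of protein kinase A showed the 2 lower genes without overlap between groups. Prkar1b (chromosome 5, 139017306 to 139150001, minus strand, GRCm38), the type I beta subunit best known from neurons, read 19.7, 14.0, 14.8 and 19.4 CPM across Control libraries and 6.30, 9.33, 12.2 and 6.97 CPM across KO libraries. Every KO library lay below every Control library. The mean was 48.7% lower, with a log2 fold change of -0.96 ± 0.22 (SE, n = 4 per group, unadjusted p = 0.00155, edgeR adjusted p = 0.0638). The adjusted p was 0.00237 by DESeq2 and 0.0324 by limma-voom. Without KO replicate 3, the highest KO library, edgeR gave -1.18 with an adjusted p of 0.0208. Leaving out any other library gave from -1.04 to -0.84, with edgeR adjusted p from 0.0828 to 0.186, so none of those fits passed. With a block for the leading digits of the animal number edgeR gave -0.91 with an adjusted p of 0.237. That block passed 29 of all 14444 genes, against 298 without it. Control replicate 4 shared its leading digits with no other library, so the block leaves it out of the comparison.

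Prkar1a (chromosome 11, 109649405 to 109669656, plus strand) was at 312, 306, 299 and 316 CPM for Control against 246, 249, 260 and 281 CPM for KO. All KO libraries lay below all Control libraries, and the mean was 16.0% lower, at a log2 fold change of -0.25 ± 0.10 (unadjusted p = 0.0335, edgeR adjusted p = 0.312). With library totals as the scaling, the fold change was -0.10 and the groups overlapped, whereas Prkar1b and Pde4a still did not overlap. Prkar2a, the type II alpha subunit, was at 62.3, 80.1, 87.6 and 74.5 CPM for Control against 79.5, 76.6, 87.9 and 83.9 CPM for KO (log2 0.11 ± 0.12).

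By per-length level, Prkar1a made up 78.0% to 82.8% of the regulatory subunits. Prkar1b made up 5.08% ± 0.848 for Control against 3.03% ± 0.898 for KO, and Prkar2a 13.6% ± 1.97 and 17.1% ± 0.694 (± SD, n = 4). The ratio of Prkar1a to Prkar2a was 7.38, 5.65, 5.04 and 6.26 in Control and 4.57, 4.80, 4.36 and 4.94 in KO, with no overlap. This ratio, which no scaling of libraries alters, was chosen after its values were seen. The ratio of all regulatory to all catalytic transcripts lay between 1.41 and 1.78 in all libraries.

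**Figure D4:**
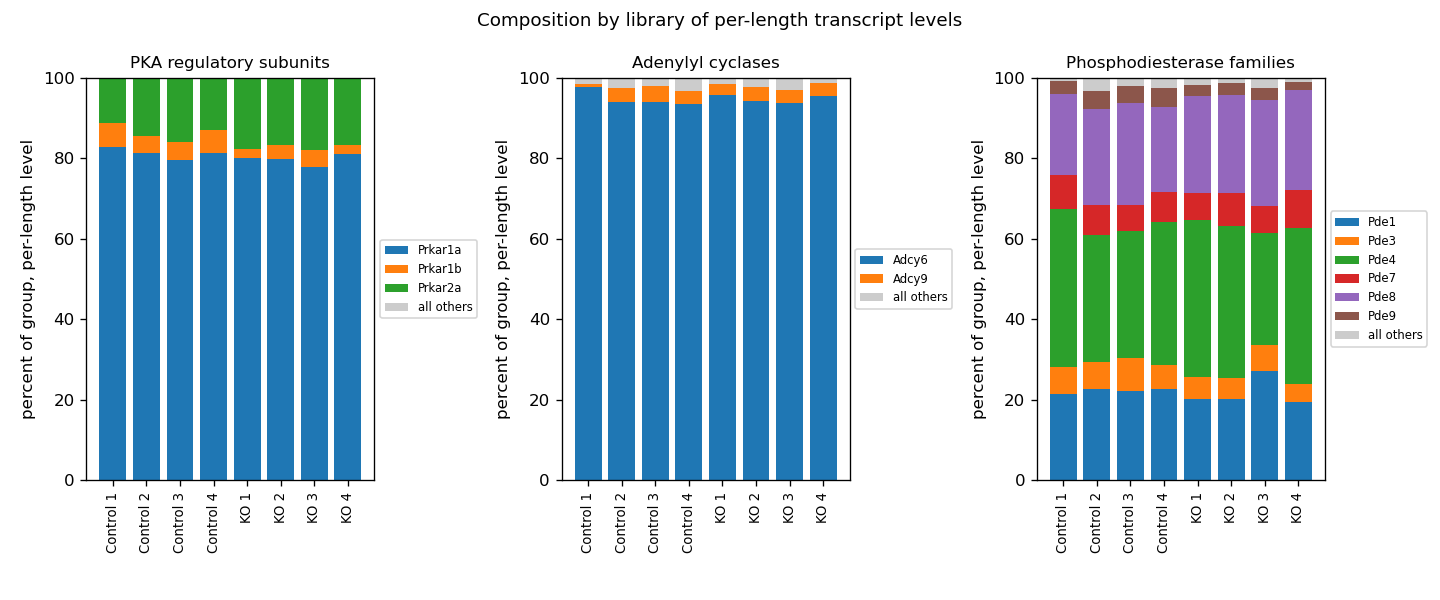
Stacked bars give, for each library, the percent of the summed per-length level held by each regulatory subunit, cyclase and phosphodiesterase family. Prkar1a holds 78.0% to 82.8% and Adcy6 93.5% to 97.7% of their groups in every library.

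The catalytic subunits, which phosphorylate the targets, differed little. Prkaca was at 104 ± 7.17 CPM for Control against 101 ± 7.50 CPM for KO (log2 -0.04 ± 0.10, and 0.11 with library totals), and Prkacb at 84.1 ± 6.67 and 75.6 ± 7.46 CPM (-0.15 ± 0.11, edgeR adjusted p = 0.556). By per-length level Prkaca was 79.8% to 84.5% of the pair.

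**Figure D5:**
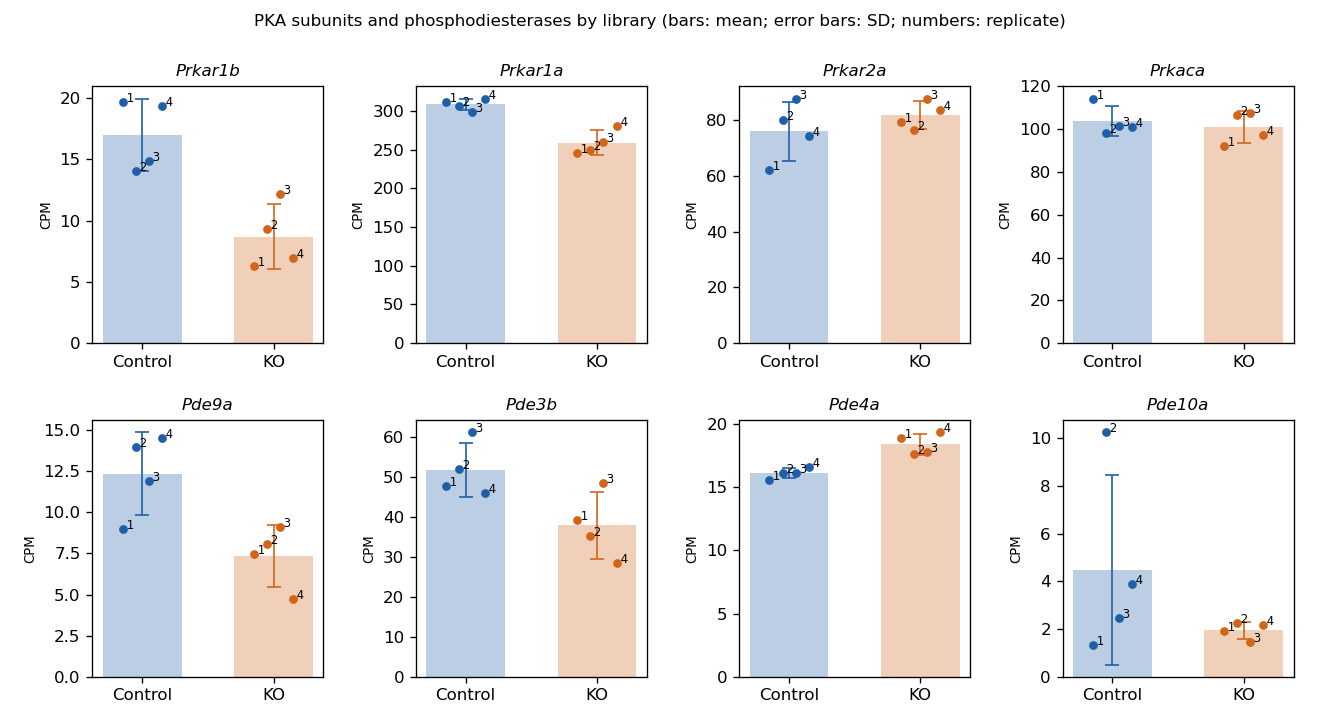
CPM of 8 genes by group, with points for libraries numbered by replicate, bars for the mean and error bars for the SD (n = 4 per group). In Prkar1b, Prkar1a and Pde4a the points of the groups do not overlap, and in Pde10a Control replicate 2 stands at 10.3 CPM.

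Of the 16 anchoring proteins, which tether protein kinase A, 12 were tested and 0 passed, with 7 positive and 5 negative fold changes. With library totals, 10 were positive and 2 negative. Akap1, of the outer mitochondrial membrane, was highest per length and stood at 53.6, 88.5, 87.3 and 82.6 CPM for Control against 72.1, 69.1, 79.6 and 71.1 CPM for KO (log2 -0.10 ± 0.16). Akap5, which anchors calcineurin beside the kinase, was low, at 0.44 to 2.10 CPM for Control against 0.83 to 1.52 CPM for KO (log2 -0.09 ± 0.45).

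The largest positive value was that of Akap13 (log2 0.57 ± 0.29, edgeR adjusted p = 0.406), at 11.3, 29.5, 24.9 and 26.9 CPM for Control against 45.7, 25.4, 28.0 and 38.7 CPM for KO. Control replicate 1 was the lowest library and KO replicates 2 and 3 lay within the Control range. Akap9, of the centrosome and Golgi, had 0.32 ± 0.15 (edgeR adjusted p = 0.374). Of the exon bases of Akap9, 0.778% overlap Cyp51 on the opposite strand, which held more counts. For Akap2, 84.4% of the exon bases are shared with Pakap on the same strand. The count of Akap2 is thus uncertain over most of its exons, and that of Akap9 over a small part. Akap13, Akap9 and Akap2, like Gucy2g, were chosen for description after their values were seen.

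Of the CREB factors, which bind the element printed above, Creb1 was at 34.7 ± 7.07 CPM for Control against 39.0 ± 4.54 CPM for KO (log2 0.17 ± 0.16) and Creb3, of the endoplasmic reticulum membrane, at 35.7 ± 8.49 and 35.7 ± 4.61 CPM (log2 -0.0026 ± 0.17). Exons of Creb3 overlap those of Tln1 and Gba2 on the opposite strand. Creb5 had 21 counts and was not tested.

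The genes around the pathway were counted from 8 lists of 144 genes that are not among the 73. These lists were chosen with earlier results of these data known, so the shares below describe the lists only. Of 88 tested, 1 was higher in KO past the threshold and 0 were lower (1.14%, against 2.06% of all genes tested). An unadjusted p under 0.05 was found for 24 (8 higher and 16 lower), or 27.3%, against 13.9% of all genes, and the 16 lower ones were 18.2%, against 6.13%. DESeq2 passed 11 (12.5%, against 5.22%) and limma-voom 4 (4.55%, against 3.54%). The median log2 fold change was -0.09, against -0.02 over all genes. The signs were 34 positive and 54 negative (61.4% negative, against 52.9%), and 48 positive and 40 negative with library totals. The gene past the threshold was Ptgdr, a Gs-coupled receptor of prostaglandin D2, with 0, 2, 0 and 0 counts in Control and 62, 55, 12 and 214 in KO (edgeR adjusted p = 0.0254). It met the filter on low counts through the KO libraries alone, so the difference itself let it into the test. The ratio of scaled counts was 145 with an exact 95% counting interval of 39.8 to 1200, and it was 65.3 without KO replicate 4, which held 214 of the 343 KO counts. Without Control replicate 2 the Control group held 0 counts. Leaving out any 1 Control library ended the call (edgeR adjusted p between 0.0703 and 0.108). The block for the animal number, by which 29 genes passed in all, also ended it (log2 5.20, edgeR adjusted p = 0.125). Leaving out any KO library put the gene below the filter.

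The receptor list held 46 genes, of which 20 were tested, 17 of them with negative fold changes and with a median of -0.44 (16 and -0.31 with library totals). That is 85.0% negative, against 52.9% of all genes tested, in a list chosen with earlier results of these data known. The list was not split by the G protein that a receptor couples to, so this share is not one of Gs-coupled receptors alone. Pth1r, the parathyroid hormone receptor, was at 405, 369, 391 and 453 CPM for Control against 236, 315, 283 and 313 CPM for KO, without overlap (log2 -0.50 ± 0.13, edgeR adjusted p = 0.104). Its adjusted p was 0.00623 by DESeq2 and 0.0576 by limma-voom. Avpr2, the vasopressin V2 receptor, was at 12.1, 22.4, 13.8 and 18.8 CPM for Control against 10.9, 9.68, 9.05 and 5.81 CPM for KO, again without overlap (log2 -0.92 ± 0.24, edgeR adjusted p = 0.100). For Avpr2 the adjusted p was 0.0111 by DESeq2 and 0.0561 by limma-voom. Avpr2 also stands in the list of connecting tubule and principal cell markers, whose 12 genes summed to 532 to 822 CPM in Control and 320 to 598 CPM in KO (11 tested, 1 rose, 0 fell). In that list Aqp2 had a log2 fold change of -1.21, Scnn1g -1.04 and Hsd11b2 -0.91, and the gene that rose was Tmem45b at 1.11. The part of these cells in the value of Avpr2 was not tested. Casr, the calcium-sensing receptor, was the opposite in sign, at 84.2, 176, 156 and 199 CPM for Control and 243, 312, 263 and 395 CPM for KO, without overlap. Its log2 fold change was 0.98 ± 0.25, with an adjusted p of 0.0972 by edgeR, 0.00803 by DESeq2 and 0.0247 by limma-voom, and it was chosen for description after its values were seen. Calcr, the calcitonin receptor, was between 0.88 and 2.00 CPM (log2 -0.06 ± 0.35).

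Downstream of the receptors, Gnas, the alpha subunit of Gs, had a log2 fold change of -0.08 ± 0.13. The cAMP-activated exchange factors Rapgef3 and Rapgef4 had -0.32 ± 0.18 and -0.39 ± 0.45, and the kinase inhibitor Pkia had 0.12 ± 0.15. Ppp1r1a, an inhibitor of protein phosphatase 1 that protein kinase A activates and calcineurin can dephosphorylate, was at 1238, 613, 666 and 744 CPM for Control against 610, 438, 410 and 347 CPM for KO. All KO libraries lay below all Control libraries, by a log2 fold change of -0.85 ± 0.25 (edgeR adjusted p = 0.143). The CREB relative Crem had -0.25 ± 0.13 and the CREB coactivator Crtc2, a known calcineurin substrate, 0.04 ± 0.12.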

How the data were processed

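Gene-level read counts for 42416 Ensembl identifiers, whole numbers with no scaling, are what the authors deposited. The submitters' processing notes name bcl2fastq (2.20), fastp (0.20.0), STAR (2.7.4a) and the build GRCm38.p6. How reads were counted, and whether by strand, is not given in the sources used here, so reads of overlapping genes cannot be told apart (21 of the 73 genes share exon bases with another gene, 7 of them with one that held over 10% as many counts). Names come from GENCODE vM21 (42347 of 42416 identifiers; the other 69 held 0.0199% of counts).

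Groups were taken from the deposited genotype. Genes with 10 or more counts in 4 or more libraries entered a quasi-likelihood F test (two-sided, edgeR 4.0.16, R 4.3.3) on all 8 libraries, with TMM scaling, a prior count of 2 and genotype alone as the model term. Adjusted p-values are Benjamini-Hochberg values over all 14444 genes, with a threshold of 0.05. Standard errors are approximate: the log2 value over the root of F. CPM use TMM-scaled sizes, and per-length levels divide them by the merged exon length. Python 3.11.15 and SciPy 1.17.1 gave counting intervals at 95%. Intervals and limits from counts cover counting error only, since reads are not independent molecules.

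The text names genes with an unadjusted p under 0.05, the highest of each role or family per length, a set chosen by name for a link to calcineurin or the segment, pathway genes past the threshold and 10 pathway genes chosen by name; a few others were chosen after their values were seen. Members and lists were chosen with earlier results of these data known. Alternatives were DESeq2 1.42.0, limma 3.58.1 voom with quality weights, upper-quartile scaling, library totals, filterByExpr, no filter (1 or more counts in all), a term for whether the file name held an index, a block for the leading digits of the animal number and each library left out.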

Additional observations from a re-analysis of the deposited data

Results flagged for a closer look

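In groups of 4 libraries, a value was singled out where its gap to the nearest other library, divided by the range of the group, was above Dixon's 95% critical value for 4 samples. Of 64 groups examined (32 named genes in each genotype), 6 were singled out, and chance gives about 1 in 20. In 5 of the 6 the library was Control replicate 1. There Akap1 stood at 53.6 CPM (82.6 to 88.5 in the other Control libraries), Prkacb at 74.1 CPM (87.3 to 87.6), Adcy9 at 2.29 CPM (8.30 to 8.83) and Pde5a at 0.878 CPM (1.62 to 1.70), all low, and Creb3 at 48.4 CPM (30.8 to 32.3), high. In KO replicate 1, Adcy6 stood at 399 CPM, against 309 to 317 in the other KO libraries.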

How the results depend on the processing

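The count of cyclic nucleotide genes past the threshold was 0 by edgeR, 2 by DESeq2, 2 by limma-voom, 2 with no filter (Prkar1b and Gucy2g), 0 to 1 with 1 library left out (1 without KO replicate 3) and 0 in the other settings. For the pathway lists it was 1 of 88 (1.14%, against 2.06% of all genes), 11 by DESeq2 (12.5%, against 5.22%), 4 by limma-voom (4.55%, against 3.54%), 2 with no filter, 0 with the block for the animal number and 0 to 1 with 1 library left out. No paired analysis was possible because the labels give no replicate numbers that the groups share. Of 512 log2 fold changes (32 named genes in 16 other settings), 463 kept direction and side of the threshold, 6 newly passed and 43, in 15 genes near 0 or at low counts, changed sign. The cause was not tested. With library totals, Akap1 was 0.040, Akap5 0.039, Creb3 0.15, Prkaca 0.11, Pde1b 0.079 and Pde4c 0.079. With the block, Akap5 was 0.34, Npr3 0.90, Pde2a 0.16, Pde3a 0.088 and Pde7a -0.0026. By limma-voom, Creb3 was 0.16, Prkaca 0.0037, Prkar2a -0.0095, Pde4c 0.0077, Pde4d -0.079, Pde5a -0.36 and Pde8a -0.059, and by DESeq2 Pde7a was -0.0015. Over the fits that leave out 1 library, Akap5 ranged from -0.34 to 0.35, Creb3 from -0.069 to 0.17, Prkaca from -0.080 to 0.0049, Npr3 from -0.99 to 0.77, Pde1b from -0.21 to 0.019, Pde2a from -0.66 to 0.13, Pde3a from -0.90 to 0.071, Pde4c from -0.18 to 0.019, Pde4d from -0.10 to 0.30, Pde5a from -0.29 to 0.27, Pde6d from -0.032 to 0.24, Pde7a from -0.063 to 0.055 and Pde8a from -0.028 to 0.11. Genes at a few counts per library carry standard errors up to 0.87, and a difference as small as its standard error does not pass the threshold.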
